A study of Mus musculus with 12 samples.

Results

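Serpin genes were read out in cultured mouse oligodendrocytes (OLs) after interference with Egr2, a zinc finger transcription factor that is known for its role in myelination. A gene was taken as a serpin when its symbol was Serpin followed by a clade letter from a to i, a number and, in some genes, a last letter. This gave 64 of the 56860 named genes of the count table. The cells were primary OLs of C57BL/6J mice. The labels place them in the medial prefrontal cortex, whereas the methods describe cortex of pups at the end of the first postnatal week, from which cells were captured with anti-O4 beads, expanded with PDGF-AA and then differentiated. There were 6 libraries of cells given the scrambled control (siNC, labelled NC) and 6 of cells given siEgr2, all taken after 48 h. The reagent is called an siRNA in one place of the methods and an interference plasmid in another. Nothing states whether the libraries of a group came from separate cultures or animals, so the p-values measure the spread between these libraries, which may be technical.

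The siEgr2 libraries held fewer counts on genes (8034251 to 16683677) than the siNC libraries (28682946 to 39383014). Rn18s-rs5, a gene for ribosomal RNA, took 0.142% to 1.05% of the counts in siNC and 10.5% to 16.5% in siEgr2, so depth and this share cannot be told apart from the treatment. Levels are given as CPM, a gene's share of the counts of its library after TMM scaling. Egr2 itself was at 5.35 ± 1.27 CPM in siNC and 3.77 ± 1.01 CPM in siEgr2 (SD, n = 6 each), and the groups overlapped. The quasi-likelihood test of edgeR gave it a log2 fold change of -0.51 (SE 0.21, adjusted p = 0.0981). Calls required an adjusted p below 0.05 together with a log2 fold change beyond 0.5 in either direction. The summed level of 10 markers of myelinating OLs was 7305 to 8331 CPM in siNC and 6863 to 7141 CPM in siEgr2, and 0 of the 10 were called. Of 8 markers of OL precursors, 3 were called higher in siEgr2 (Pdgfra, Cspg4 and Pcdh15), beside 2.63% of all genes tested, and the sum of the 8 was 4779 to 5308 CPM in siNC and 5438 to 6001 CPM in siEgr2. Astrocyte markers were abundant, with a sum of 8174 to 8877 CPM in siNC and 5202 to 5909 CPM in siEgr2. Of these 10 markers, 5 were called lower (Gfap, Aqp4, Aldh1l1, Slc1a2 and Slc1a3), beside 5.08% of all genes tested. The 10 microglia markers were low, with sums of 24.9 to 30.9 CPM in siNC and 22.03 to 31.9 CPM in siEgr2, with Aif1 and Itgam at 0 and none of 4 tested called. The 10 endothelial markers summed to 28.8 to 37.001 CPM and 28.8 to 39.1 CPM, with Cldn5 at 0 and 1 of 4 tested called lower (Flt1). The 10 neuron markers summed to 410 to 664 CPM in siNC and 398 to 637 CPM in siEgr2. Of 9 tested, 1 was called lower (Stmn2), and the log2 fold changes had both signs, with a median of -0.11. The 8 markers of choroid plexus and ependyma summed to 66.1 to 106 CPM in siNC and 49.8 to 63.8 CPM in siEgr2. Of 6 tested, 0 were called and 1 had an adjusted p under 0.05, with a median log2 fold change of -0.48. In a bulk library, fewer cells of a type and less RNA per cell cannot be told apart, and the part of astrocytes in the serpin values was not tested.

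Serpins are a superfamily of proteins built on one fold, most of which inhibit serine proteases. An exposed reactive center loop serves as bait: the protease cuts it, the loop inserts into the body of the serpin, and the protease stays trapped in a covalent complex. Clade letters follow sequence relationship. Clade A holds secreted relatives of antitrypsin and antichymotrypsin, clade B holds mostly intracellular serpins, clade E holds inhibitors of plasminogen activators, and a few members, such as the collagen chaperone Serpinh1, inhibit no protease.

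The coding sequence around the reactive center loop is shown for the members on which the values below turn, since this is where serpins differ in the proteases they meet. Each line holds 90 bases in lower case, which lie just upstream of the serpin signature and contain the loop, and then the 33 bases of the signature in capitals, 5′ to 3′ on the coding strand. Serpina3n and Serpina3m are shown as neighbors of the clade A cluster, Serpine2 as a member with a higher level in siEgr2, Serpinb8, Serping1 and Serpinh1 as members with lower levels in siEgr2, and Serpinb5 as the gene that opens the clade B cluster of chromosome 1.
Serpina3n: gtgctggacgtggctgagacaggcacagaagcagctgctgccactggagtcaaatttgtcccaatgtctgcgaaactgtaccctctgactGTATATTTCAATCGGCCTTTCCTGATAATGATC
Serpina3m: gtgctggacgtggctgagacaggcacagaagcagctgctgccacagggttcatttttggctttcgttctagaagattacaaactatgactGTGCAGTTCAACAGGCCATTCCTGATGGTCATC
Serpine2: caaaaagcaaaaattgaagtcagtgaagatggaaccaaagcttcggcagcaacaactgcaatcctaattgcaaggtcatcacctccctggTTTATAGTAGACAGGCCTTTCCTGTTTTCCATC
Serpinb8: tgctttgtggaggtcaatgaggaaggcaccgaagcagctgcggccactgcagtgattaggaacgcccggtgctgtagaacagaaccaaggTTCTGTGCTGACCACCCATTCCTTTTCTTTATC
Serpinb5: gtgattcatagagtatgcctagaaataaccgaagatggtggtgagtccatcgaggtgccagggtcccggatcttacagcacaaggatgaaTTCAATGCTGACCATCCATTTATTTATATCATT
Serping1: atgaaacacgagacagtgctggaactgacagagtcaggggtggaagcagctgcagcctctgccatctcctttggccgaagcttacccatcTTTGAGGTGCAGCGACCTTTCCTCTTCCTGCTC
Serpinh1: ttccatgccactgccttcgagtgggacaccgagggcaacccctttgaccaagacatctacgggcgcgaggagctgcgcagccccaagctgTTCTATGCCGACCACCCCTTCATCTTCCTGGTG

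These stretches were read from the GENCODE transcripts on GRCm38. The Serpina3n stretch lies in exon 5 of 5 at chr12:104413427-104413549 (+ strand) and that of Serpina3m in exon 5 of 5 at chr12:104393748-104393870 (+ strand). The Serpine2 stretch spans exons 7 and 8 of 9 at chr1:79796842-79799522 (- strand). The stretch of Serpinb8 lies in exon 7 of 7 at chr1:107607149-107607271 and that of Serpinb5 in exon 7 of 7 at chr1:106881817-106881939 (both + strand). Those of Serping1 (exon 8 of 8, chr2:84765634-84765756) and Serpinh1 (exon 5 of 5, chr7:99346201-99346323) lie on the - strand. All 7 are coding sequence.

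Of the 64 serpin genes, 31 had 0 counts in every library and 14 had counts that were too few for the filter, which left 19 that were tested (29.7%, beside 29.2% of all named genes). A count of 0 allows up to 3 counts, or 0.0717 CPM in the deepest siNC library and 0.384 CPM in the shallowest siEgr2 library, as counting error only. Whether a fragment could add more than 1 count is not given in the sources used here, so the number of fragments behind 3 counts is not known. Of the 19 tested serpins, 2 were called lower in siEgr2, among them Serpinb8, where 5.08% of all 16600 genes tested were called lower and 7.72% were called in either direction. None was called higher by edgeR, DESeq2 or limma-voom, where 2.63% of all genes were called higher by edgeR. At an unadjusted p under 0.05 there were 7 serpins of the 19, 6 lower and 1 higher, against 32.0% of all genes. The adjusted p alone was under 0.05 in 5 serpins (26.3%) against 19.9% of all genes: Serpinh1, Serping1 and Serpinb8 were among the 4 that were lower, and Serpine2 was higher. The groups did not overlap in 2 serpins (10.5%), Serpinh1 and Serpinb8, against 11.2% of all genes. In 16 of the 19 the log2 fold change was negative (Serpinb6b and Serpinc1 among them turned positive without some single libraries), and the median was -0.24, beside 0.0046 over all genes tested. With 1 library left out, the number called lower lay between 1 (without siNC replicate 2) and 5 (without siNC replicate 4), and it was 4 without siEgr2 replicate 3.

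**Figure D1:**
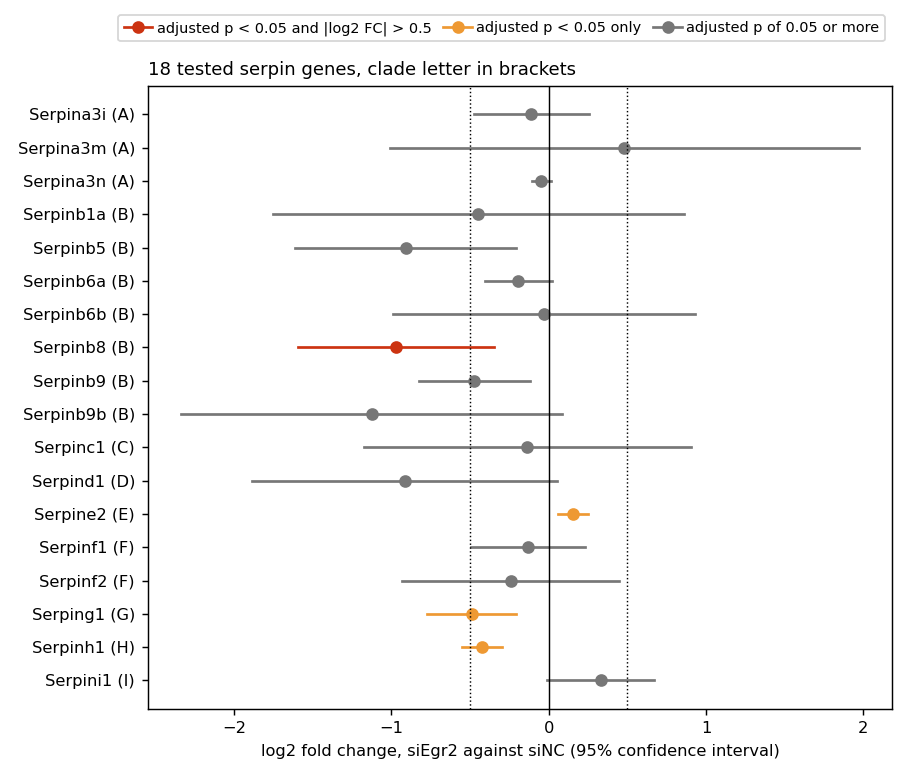
Log2 fold changes of 18 of the 19 tested serpin genes in siEgr2 against siNC (x axis), with 95% confidence intervals as lines, ordered by clade letter. Dotted lines mark log2 fold changes of 0.5 in each direction. Serpinb8 (red) met both thresholds, Serpine2, Serping1 and Serpinh1 (orange) met only that on the adjusted p, and 15 of the 18 points lie left of 0.

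Levels spanned a wide range. Per kilobase of exon, Serpina3n stood first in siNC at 883 CPM, followed by Serpinh1 at 109 CPM and Serpine2 at 57.3 CPM. This order rests on the merged exon length: undivided, Serpine2 (474 CPM) stood above Serpinh1 (266 CPM) in siNC. Serpinf1 (10.9 CPM per kilobase) and Serping1 (10.7 CPM per kilobase) were lower, and their ranges over the siNC libraries overlapped (8.03 to 14.4 and 9.31 to 12.3). Serpinb6a was at 3.70 CPM per kilobase and Serpinb9 at 2.20 CPM per kilobase. Another 11 tested genes were at 0.110 to 1.96 CPM per kilobase. The sum over all serpins was 2704 ± 33.6 CPM in siNC and 2602 ± 97.5 CPM in siEgr2.

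Serpine2 (chr1:79794197-79861180, - strand) encodes protease nexin-1, a secreted inhibitor of thrombin and plasminogen activators that glia make. Its levels in siNC were 448, 448, 520, 470, 453 and 508 CPM, and in siEgr2 488, 550, 554, 515, 530 and 536 CPM. The upper siNC libraries reached into the siEgr2 range, so the groups overlapped. The means were 474 ± 31.8 CPM and 529 ± 24.4 CPM, with a log2 fold change of 0.16 (SE 0.045, 95% interval 0.062 to 0.25, adjusted p = 0.020 in edgeR), under the fold threshold. Scaled by library size only, the value was -0.025, where the median of all genes moved to -0.18. Serpine3 had at most 2 counts in a library.

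The bases from 250 before to 50 after the start of Serpine2 (chr1:79858616-79858915, - strand, RefSeq promoter table on GRCm38.p6) are shown because they were the only serpin promoter that held a known binding motif of the EGR family, given in capitals.
Serpine2 promoter: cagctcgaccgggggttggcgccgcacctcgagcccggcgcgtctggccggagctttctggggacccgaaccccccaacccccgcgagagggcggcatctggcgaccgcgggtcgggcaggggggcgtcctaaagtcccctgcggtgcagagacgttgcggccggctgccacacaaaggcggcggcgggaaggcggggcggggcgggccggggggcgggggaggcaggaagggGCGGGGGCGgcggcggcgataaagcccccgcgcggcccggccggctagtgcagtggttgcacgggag

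The motifs searched were GCGTGGGCG and GCGGGGGCG, on both strands. Of 32851 promoters of this length, 201 (0.612%) held the first and 955 (2.91%) the second, and 1139 (3.47%) held either. Among the 54 serpins with an entry, 1 did. Serping1 was not among them. A match of letters is a description of the sequence, and no binding was measured here.

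**Figure D2:**
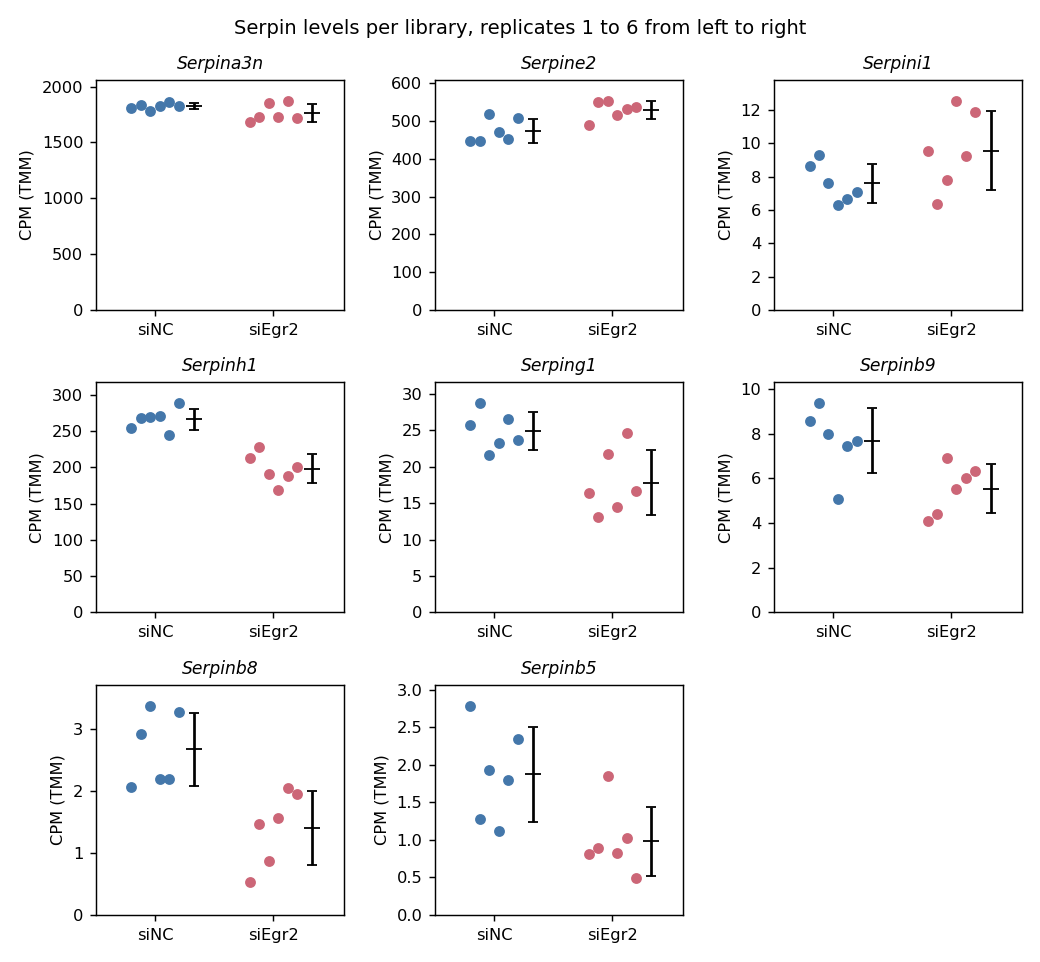
Levels of 8 serpins in CPM (y axis, from 0) in each of the 6 siNC and 6 siEgr2 libraries, with replicates 1 to 6 from left to right and the mean ± SD in black. Serpinh1 and Serpinb8 show no overlap between the groups, and the groups of Serpina3n overlap.

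Proteases, cofactors and receptors that serpins work with were measured as well. Plat, which encodes the plasminogen activator tPA, was at 165 ± 9.21 CPM in siNC and 132 ± 9.77 CPM in siEgr2, with a log2 fold change of -0.32 (adjusted p = 0.00047), under the fold threshold. Vtn, the gene of the matrix protein vitronectin, was called lower, with 21.3 ± 4.12 CPM and 12.4 ± 3.16 CPM. Lrp1, a receptor that takes up complexes of serpins and proteases, was at 975 ± 59.0 CPM and 802 ± 66.5 CPM with a log2 fold change of -0.28. Its relative Lrp2 was called lower with a log2 fold change of -0.88 (adjusted p = 0.0039). The heparan sulfate proteoglycans Sdc2 and Sdc4 were called lower with -0.55 and -0.92, and Sdc3 had 0.17. Of the 23 receptors and cofactors listed, 20 were tested, 4 were called lower and 0 higher and 8 had an adjusted p under 0.05, beside 5.08% called lower and 19.9% at that adjusted p over all genes. The median log2 fold change was -0.19. Rpsa, a laminin receptor, had a log2 fold change of 0.08 (adjusted p = 0.156).

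Serpinh1 (chr7:99345376-99353239, - strand) encodes HSP47, the chaperone of procollagen in the endoplasmic reticulum. It was at 255, 268, 269, 271, 245 and 289 CPM in siNC and at 213, 227, 191, 169, 188 and 201 CPM in siEgr2. Every siEgr2 library was below every siNC library. The means were 266 ± 15.1 CPM and 198 ± 20.4 CPM, with a log2 fold change of -0.42 (SE 0.061, 95% interval -0.55 to -0.29, adjusted p = 0.000121 in edgeR), the smallest adjusted p among the serpins and still under the fold threshold. Its share of all serpin counts was 9.08% to 10.4% in siNC and 6.72% to 8.71% in siEgr2.

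Serpinh1 works beside the enzymes and chaperones that fold collagen. Of 21 such genes tested, 4 were called lower and 0 higher and 10 had an adjusted p under 0.05, beside 5.08% called lower and 19.9% at that adjusted p over all genes. The median log2 fold change was -0.24. Creb3l1, a transcription factor of secretory cells, had -1.10 (17.1 ± 1.61 CPM against 8.005 ± 1.15 CPM). The prolyl hydroxylase subunit P4ha3 had -0.66, the prolyl isomerase Fkbp10 -0.62 and the collagen-binding protein Sparc -0.58. Of the most abundant genes that were not called, P4hb, which encodes protein disulfide isomerase, had -0.24 (adjusted p = 0.000105), Ppib, an isomerase, had -0.02 and Mia3, which exports procollagen, had 0.02. The collagen genes Col1a1, Col1a2 and Col3a1, read here as fibroblast markers, had -0.16, -0.27 and -0.11 and were not called. Of 7 tested genes of that marker list, Pdgfrb and Rgs5 were called lower, beside 5.08% of all genes. The summed level of the list was 814 to 1360 CPM in siNC and 837 to 1031 CPM in siEgr2, and its part in the Serpinh1 value was not tested.

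Serping1 (chr2:84765387-84775444, - strand) encodes C1 inhibitor, which blocks the complement proteases C1r and C1s and plasma kallikrein. Its levels were 25.7, 28.7, 21.7, 23.2, 26.6 and 23.6 CPM in siNC and 16.3, 13.1, 21.7, 14.4, 24.6 and 16.7 CPM in siEgr2. Replicates 3 and 5 of siEgr2 lay among the siNC libraries and the other 4 lay below all of them. The means were 24.9 ± 2.56 CPM and 17.8 ± 4.44 CPM, with a log2 fold change of -0.49 (SE 0.13, 95% interval -0.77 to -0.21, adjusted p = 0.0159 in edgeR), just under the fold threshold. It crossed that threshold in limma-voom (-0.53), without siNC replicate 3, 4 or 6, and without siEgr2 replicate 3 (-0.56) or 5 (-0.60). After thinning to the smallest total it was at -0.37 (adjusted p = 0.0699).

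Of the genes of complement proteases, C1ra and C1s1 were called lower. C1ra was at 11.4 ± 1.86 CPM in siNC and 6.69 ± 1.73 CPM in siEgr2, with a log2 fold change of -0.77 (adjusted p = 0.00305). C1s1 was at 8.10 ± 1.26 CPM and 3.80 ± 0.861 CPM, with -1.08 (adjusted p = 0.000171). Both have near-identical copies, C1rb and C1s2, so the split of their reads is uncertain. C1s2 had -0.49 (adjusted p = 0.671), and C1rb and Klkb1, the gene of plasma kallikrein, did not pass the filter on low counts. C1rb was at 0.336 to 2.13 CPM in siNC and at 0 to 0.256 CPM in siEgr2, with a median of 0. Masp1, a protease of the lectin pathway of complement, had a log2 fold change of the other sign, with 13.6 ± 1.31 CPM in siNC and 17.4 ± 1.53 CPM in siEgr2 (0.36, adjusted p = 0.00931, under the fold threshold), and Masp2 had 0.28 (adjusted p = 0.565). Of the 43 genes listed as serpin targets, which are proteases except F3, 20 were tested. Of these, 4 were called lower and 0 higher, beside 5.08% called lower over all genes. An adjusted p under 0.05 was found in 8 (7 lower and, with Masp1, 1 higher), beside 19.9% of all genes. The median log2 fold change was -0.39. Without siEgr2 replicate 6, 7 were called. The other calls were Htra1, a secreted serine protease, at 106 ± 11.02 CPM and 68.4 ± 12.2 CPM (-0.63), and Casp8, a caspase of death receptor signaling, at 3.78 ± 0.726 CPM and 1.33 ± 0.544 CPM (-1.54). The lysosomal cathepsins Ctsb and Ctsl had log2 fold changes of -0.43 (adjusted p = 3.7e-07) and -0.40 (adjusted p = 2e-05), under the fold threshold. Among proteases at 0 in every library were F2 (thrombin), Gzma and Klk11.

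Clade B held 28 genes, of which 13 had a count and 7 were tested. Serpinb8 (chr1:107590006-107610484, + strand), an intracellular inhibitor of furin-like proteases, was at 2.06, 2.93, 3.38, 2.20, 2.19 and 3.28 CPM in siNC and at 0.538, 1.47, 0.865, 1.57, 2.05 and 1.95 CPM in siEgr2. The lowest siNC library and the highest siEgr2 library were nearly level, although the groups did not overlap. The counts behind these levels were 67 to 137 per library in siNC and 8 to 21 in siEgr2. The means were 2.67 ± 0.595 CPM and 1.41 ± 0.598 CPM, with a log2 fold change of -0.97 (SE 0.29, 95% interval -1.59 to -0.35, adjusted p = 0.028 in edgeR). The call was lost without siNC replicate 2 (adjusted p = 0.0512), 3 (0.0665) or 6 (0.0662), without siEgr2 replicate 3 (0.0606), and after thinning to the smallest total (-0.69, adjusted p = 0.189).

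Serpinb5 (chr1:106861173-106883348, + strand) encodes maspin, a serpin that is known as a suppressor of tumor cell invasion and does not act as a classical inhibitor. Its levels were 2.79, 1.28, 1.93, 1.11, 1.80 and 2.35 CPM in siNC and 0.807, 0.895, 1.85, 0.822, 1.02 and 0.487 CPM in siEgr2. Of the siEgr2 libraries, 5 lay below all siNC libraries and replicate 3 lay among them. The log2 fold change of -0.91 (SE 0.33, 95% interval -1.61 to -0.21) had an adjusted p of 0.065 in edgeR and was not called, with counts of 38 to 98 in the siNC and 5 to 30 in the siEgr2 libraries. It passed in DESeq2 (adjusted p = 0.0431), without siNC replicate 4 (0.042), without siEgr2 replicate 3 (-1.22, adjusted p = 0.0152) and when scaled by library size only.

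Serpinb9, an inhibitor of granzyme B, was at 7.69 ± 1.46 CPM in siNC (5.06 to 9.38) and 5.55 ± 1.11 CPM in siEgr2 (4.10 to 6.92), with a log2 fold change of -0.47 (adjusted p = 0.0579). It passed both thresholds without siNC replicate 4 (-0.57, adjusted p = 0.0145) and without siEgr2 replicate 3 (-0.56, adjusted p = 0.0367). Serpinb6a, a broad intracellular inhibitor and the most abundant gene of the clade, was at 19.998 ± 2.26 CPM and 17.5 ± 2.09 CPM (-0.19, adjusted p = 0.202). Serpinb9b had a log2 fold change of -1.12 (95% interval -2.33 to 0.086, adjusted p = 0.191), on at most 14 counts in a siEgr2 library. Serpinb1a, an inhibitor of neutrophil elastase, had -0.45 (adjusted p = 0.673) and Serpinb6b had -0.03 (adjusted p = 0.976). All 7 tested clade B genes had a negative log2 fold change, and 1 was called lower, beside 5.08% of all genes, but Serpinb6b turned positive in 6 alternatives that left out 1 library (up to 0.13), so it has no direction here. The sum over the clade was 35.7 ± 3.06 CPM in siNC and 28.1 ± 3.97 CPM in siEgr2. The untested Serpinb1b had a count in 11 libraries, 4 to 16 in siNC and 0 to 10 in siEgr2.

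The clade B genes lie in 2 clusters. That of chromosome 1 (chr1:106861173-107610484) holds 12 genes, and its first and last gene, Serpinb5 and Serpinb8, were the only ones tested. Of the 10 between them, 2 had a count (Serpinb11 and Serpinb2), at most 26 in a library. The cluster of chromosome 13 (chr13:32842092-34002794) holds 15 genes matched in GENCODE, of which 9 had a count and 5 were tested. Serpinb9h, which had no counts and no match there, has its RefSeq promoter entry within the same interval (chr13:33395423-33395722).

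**Figure D3:**
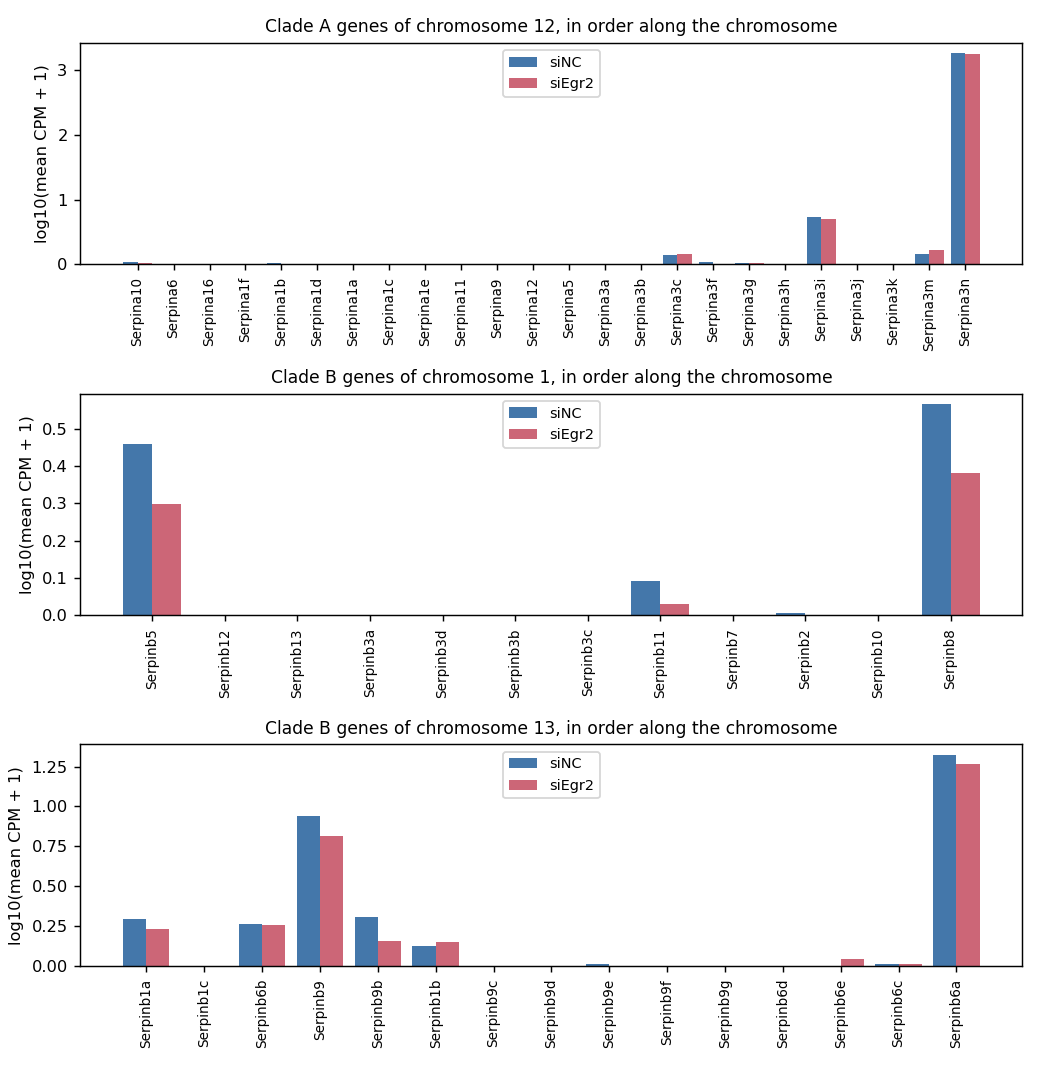
Mean levels of the serpins of 3 genomic clusters that were matched in GENCODE, in their order along the chromosome, as log10 of mean CPM + 1 (y axis, a different range in each panel) in siNC (blue) and siEgr2 (red), n = 6 each. In clade A on chromosome 12 the last gene, Serpina3n, stands far above the other 23, and in clade B on chromosome 1 the highest levels sit at both ends of the cluster.

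In clade A, 1 gene held nearly all counts. Serpina3n (chr12:104406729-104414329, + strand) encodes a secreted inhibitor related to antichymotrypsin that is known as a marker of reactive glia. It was at 1811, 1836, 1779, 1827, 1861 and 1822 CPM in siNC and at 1681, 1729, 1854, 1730, 1874 and 1723 CPM in siEgr2. The groups overlapped, with 4 siEgr2 libraries below and 2 within or above the siNC range. The means were 1822 ± 27.3 CPM and 1765 ± 78.9 CPM, and the log2 fold change was -0.05 (SE 0.030, 95% interval -0.11 to 0.017, adjusted p = 0.309 in edgeR). The interval lies within the fold threshold of 0.5 on both sides. Its share of all serpin counts was 65.8% to 69.1% in siNC and 66.2% to 69.0% in siEgr2. Scaled by library size only it was at -0.23 (adjusted p = 0.000509), beside the median of -0.18 over all genes.

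The clade A cluster (chr12:103614786-104414329) holds 24 of the 25 clade A genes, of which 10 had a count and 3 were tested. Serpina3i was at 4.36 ± 0.293 CPM in siNC and 4.04 ± 1.15 CPM in siEgr2 (-0.11, adjusted p = 0.718), and Serpina3m at 0.449 ± 0.207 CPM and 0.663 ± 0.732 CPM (0.48, adjusted p = 0.692). The log2 fold change of Serpina3m turned to -0.44 in limma-voom and to -0.075 without siEgr2 replicate 5, so it has no direction here. The untested Serpina3c had a count in 10 libraries, at most 22. The antitrypsin genes Serpina1c, Serpina1d and Serpina1e had none, and Serpina1a and Serpina1b had at most 3 and 6 counts. Of the 10 liver markers, Alb, Fgg and Ahsg were at 0 in every library, and 3 were tested. Hp, a plasma protein gene, was the only one called lower, beside 5.08% of all genes. It was at 1.83 ± 0.538 CPM in siNC and 0.453 ± 0.473 CPM in siEgr2, where its lowest value was 0.

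Genes of the Serpina3 group are close copies of each other, which bears on these low values. Before the signature, the printed stretches of Serpina3n and Serpina3m are identical at 44 of the first 45 bases and at 24 of the next 45. Of the 2015 words of 50 bases, the read length, in Serpina3n transcripts, 139 (6.9%) also occur in another gene, 18 of them in Serpina3m and 54 in the pseudogene Serpina3e-ps. Serpina3i shares 15.9% of its words with other genes and none with Serpina3n, and Serpina3m shares 19.1%, mostly with Serpina3k, with which it overlaps. Counts of Serpina3m were 0.00962% to 0.0383% of those of Serpina3n in siNC and 0% to 0.103% in siEgr2, and those of Serpina3i 0.218% to 0.264% and 0.144% to 0.345%. How reads in shared words were assigned is not given in the sources used here, so the values of Serpina3i and Serpina3m are uncertain.

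**Figure D4:**
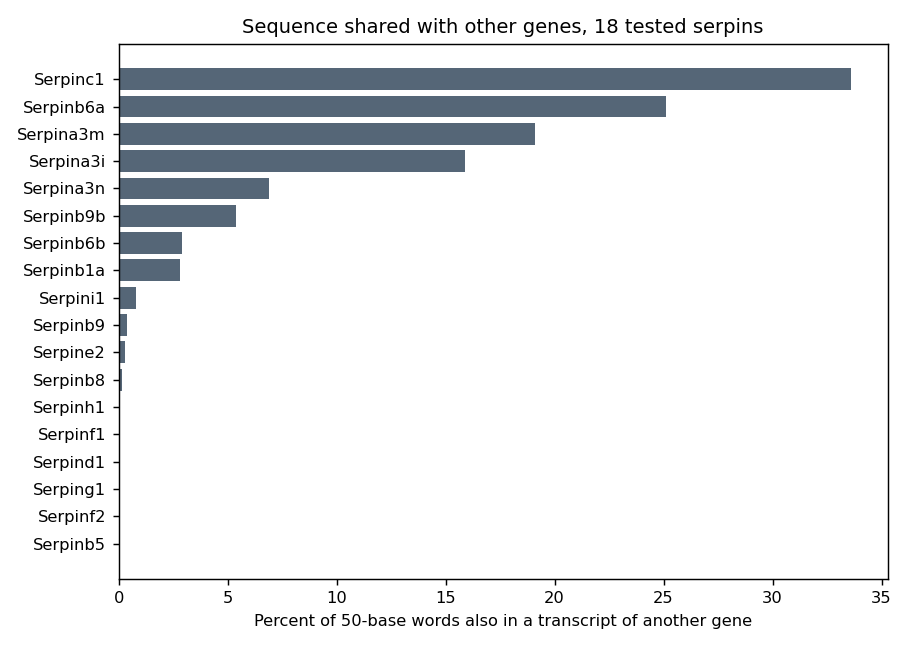
Percent of the 50-base words of 18 tested serpins that also occur in a transcript of another gene (x axis), on either strand, 1 bar per gene. Serpinc1 (33.6%), Serpinb6a (25.1%), Serpina3m (19.1%) and Serpina3i (15.9%) share most, and Serping1, Serpinh1 and Serpinb5 share none.

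The single genes of the other clades were low except Serpinf1. Serpinf1 encodes PEDF, a secreted factor that inhibits vessel growth and no protease. It was at 25.6 ± 5.82 CPM in siNC and 23.5 ± 5.39 CPM in siEgr2 (-0.13, 95% interval -0.49 to 0.23, adjusted p = 0.652). Serpinf2, the inhibitor of plasmin, had a log2 fold change of -0.24 (adjusted p = 0.663). Serpini1 encodes neuroserpin, an inhibitor of tPA, and was at 7.60 ± 1.16 CPM and 9.56 ± 2.37 CPM (0.33, 95% interval -0.012 to 0.67, adjusted p = 0.173). Serpind1, heparin cofactor II, was at 2.91 ± 1.27 CPM and 1.5003 ± 0.828 CPM, with 0 counts in siEgr2 replicate 5 (-0.92, adjusted p = 0.182). Serpinc1, antithrombin, had -0.14 (adjusted p = 0.881). A large share of its words belongs to Zbtb37 on the opposite strand, and Serpinb6a overlaps Nqo2 and Ripk1 in the same way, so without known strandedness their reads cannot be told apart.

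Protease inhibitors of other families were counted beside the serpins. Of 18 tested, 3 were called lower and 0 higher and 7 had an adjusted p under 0.05, beside 5.08% called lower and 19.9% at that adjusted p over all genes. The median log2 fold change was -0.42. Without siEgr2 replicate 5, 7 were called, and without siNC replicate 4, 5 were. Spock2, a proteoglycan with an inhibitor domain, was the only one of the 7 that was higher (27.1 ± 2.45 CPM in siNC and 35.0 ± 3.59 CPM in siEgr2, log2 fold change 0.37, adjusted p = 0.00362), under the fold threshold. A2m, the general protease trap of plasma, was at 1965 ± 115 CPM in siNC and 1114 ± 57.0 CPM in siEgr2 (-0.82, adjusted p = 2e-09), so that it stood above Serpina3n in siNC and below it in siEgr2 in CPM, a scale that does not account for length. The hyaluronan-binding chains Itih3 and Itih5 had -0.78 and -0.81. The cysteine protease inhibitor Cst3 had -0.49 (adjusted p = 6.8e-07), under the fold threshold, App, whose longer forms carry an inhibitor domain, had -0.13 and Pebp1 had -0.11. Whether this list differs from the serpins was not tested.

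**Figure D5:**
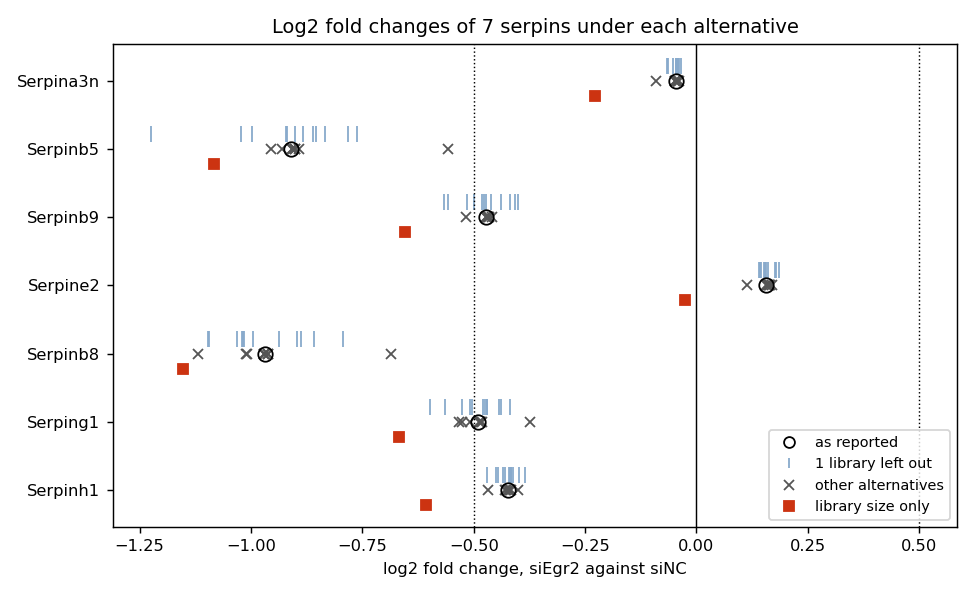
Log2 fold changes of 7 serpins (x axis) as reported (circles), with 1 library left out (ticks), under the other alternatives (crosses) and scaled by library size only (red squares). Serpinb8 stays below -0.5 throughout, Serpinh1 and Serping1 lie near that line, and library size alone moves each gene to the left, with Serpine2 at -0.025.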

How the data were processed

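Per the labels, total RNA of 12 libraries was sequenced on the Illumina platform, and the submitters' processing notes name the mouse build mm10. The authors deposited a table of raw counts per gene, named by symbol. Aligner, counting program, annotation and strandedness are not given in the sources used here. The serpin genes and the gene lists were chosen with earlier results of these data known.

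1 blank entry without a gene name was left out. The counts were fitted with edgeR 4.0.16 in R 4.3.3 (filterByExpr, TMM, quasi-likelihood test with robust estimation, no covariate), with Benjamini-Hochberg adjustment over 16600 genes. The study's thresholds, an adjusted p below 0.05 and a log2 fold change beyond 0.5, were used. It names no test. Standard errors and 95% intervals follow from the same fit. Tested serpins are named, called ones with all values, except 1 that is counted but not reported here. From each partner list all called genes and the 3 most abundant tested genes that were not called are named, and of the cell type lists, for brevity, the called genes. C1rb, C1s2, Klkb1, Masp1, Masp2 and Spock2 were named after their values were seen.

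No library was a copy of another (chi-square per gene of 7.09 to 36.7 over 30 same-group pairs). Coordinates and transcripts came from GENCODE M21 (GRCm38, the same build as mm10), which held 63 of the 64 symbols, and CPM per kilobase used merged exon length. Promoters came from RefSeq (GRCm38.p6). The procedure was run on simulated counts with as many raised as lowered genes, a constant dispersion and no planted shift in ribosomal RNA. These settings differ from the data, so the run cannot show how the procedure does here. Alternatives were RLE, upper-quartile and library-size scaling, DESeq2 1.42.0, limma-voom (limma 3.58.1), 2 filters, a replicate block, thinning, structural RNA genes left out, no fold threshold, and each library left out.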

Additional observations from a re-analysis of the deposited data

Results flagged for a closer look

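Serpinb9b was at 0.410 CPM (14 counts) in siNC replicate 4 and at 1.01 to 1.29 CPM in the other 5 siNC libraries, a gap that Dixon's test sets apart. This was 1 of 38 groups of 6 libraries examined, and chance sets apart about 5% of them.

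Serpina3e-ps, a pseudogene that the symbol rule leaves out, had 3 counts in 1 siEgr2 library and 0 in every siNC library. It shares 50-base words with Serpina3n and Serpina3i.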

How the results depend on the processing

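In 1 of 23 alternatives, scaling by library size only, the median over all genes (log2) went from 0.0046 to -0.18 and the calls from 1281 (65.9% lower) to 1974 (87.99% lower). It called 6 serpins lower (among them Serpinb5, Serpinb8, Serpinb9, Serping1 and Serpinh1), put 8 at an adjusted p under 0.05 and turned Serpine2 to -0.025. With it, the calls were 10 of 20 target genes tested, 7 of 20 receptors, 7 of 21 collagen folding genes and 8 of 18 other inhibitors. Of cell type markers they were 1 of 8 precursor, 8 of 10 astrocyte and 2 of 6 choroid plexus genes. Over all genes, 1974 of 16600 tested were called.

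Without the fold threshold, 3300 genes (19.9% of those tested) were called, with 4 serpins lower and 1 higher of 19 tested. The calls were 8 of 20 target genes tested, 8 of 20 receptors, 10 of 21 collagen folding genes and 7 of 18 other inhibitors. Of cell type markers they were 3 of 10 myelin, 5 of 8 precursor, 3 of 9 neuron and 1 of 6 choroid plexus genes. Without the filter on low counts, 4 of 33 serpins tested were called lower (among them Serpinb8, Serpinb9 and Serping1), beside 1046 of 30142 genes. In that setting 5 other inhibitors and 1 choroid plexus gene were called. Thinning to the smallest total left 1 of 13 serpins tested called lower, beside 725 of 14442 genes. It left 3 serpins at an adjusted p under 0.05 and 0 endothelial genes called.

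With 1 library left out, 1114 to 1339 genes were called, where 16133 to 17409 genes and 18 to 21 serpins were tested. Of the serpins, 1 to 5 were called lower and 4 to 7 had an adjusted p under 0.05. The lists held 4 to 7 called target genes and 3 to 7 other inhibitors. Of cell type markers, 1 to 2 endothelial, 1 to 3 fibroblast and 0 to 1 choroid plexus genes were called. Signs turned in Serpina3m (-0.075 to 0.77, and -0.44 in limma-voom), Serpinb6b (-0.38 to 0.13) and Serpinc1 (-0.38 to 0.10), none of them called. The cause of these moves was not tested.

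No pairing by replicate number was seen: the same-number correlations were -0.039 to 0.042, with 0 of 6 over 0.1. Of the libraries, 2 of 6 siNC and 2 of 6 siEgr2 correlated best with their own number. These correlations cannot tell whether libraries of the same number shared a culture or batch, which is not stated. With a replicate block, 1124 of 16600 genes were called, among them 3 of 19 serpins, which include Serpinb8 and, at -0.51, Serping1. Leaving out structural RNA genes kept the call of Serpinb8. Depth limits the serpins under about 1 CPM, where siEgr2 libraries held few counts. It bears on higher ones too. After thinning to the smallest total, Serpinb8 lost its call (adjusted p = 0.189 in edgeR) and Serping1 had an adjusted p of 0.0699.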

Other observations

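Even numbers were frequent among low counts. Of 99 serpin counts between 2 and 21, 67.7% were even, and of 69957 such counts over all genes 64.3% were. Between 100 and 1000 the shares were 50% of 70 serpin counts and 50.3% of 83785 counts over all genes. The counts of 8 to 21 behind Serpinb8 in siEgr2 lie in the lower range. Whether both mates of a read pair were counted is not given in the sources used here and was not tested, so the number of fragments behind low counts, and behind the limit of 3 counts that a count of 0 allows, is not known.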
